A study of Homo sapiens with 3 samples.

Results

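Chemokines are small secreted or membrane-tethered proteins that bind G protein-coupled receptors on leukocytes and draw those cells along a gradient. The families are named for the spacing of the first conserved cysteines (CC, CXC and CX3C), and each ligand is read by a limited set of receptors, so the mixture a tumour cell makes bears on which leukocytes it can attract. Many chemokine genes are induced through NF-kB, interferon-inducible ones also through STAT and IRF factors, and a number of chemokine messages are short-lived. The 10 ligands described here are Ccl9, Ccl2, Ccl7 and Cx3cl1, grouped as monocyte attractants, Cxcl1, Cxcl5 and Ppbp, grouped as neutrophil attractants, and Ccl17, Ccl20 and Cxcl10, grouped as attractants of T cells and dendritic cells.

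The ligands were chosen by gene symbol from chemokines with a measurable level in AB12 cells, at a time when their levels and differences in these same libraries were already known. All 10 had a row among the 13936 genes of the table, and all 10 passed the filter for testing, a mean of at least 10 scaled counts. Their values below are therefore a description. No p-value is given for any of them. A further 8 chemokine ligands had a row and are used for comparison.

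AB12 is a mouse malignant mesothelioma line. The study set AB12 cells with a hairpin labelled shNF2 against AB12 cells with a hairpin labelled shSC, taken here as its control; merlin, the product of NF2, is a tumour suppressor that links membrane proteins to the actin cytoskeleton. There were 2 shNF2 libraries, which carry the numbers 20 and 21 in their titles, and 1 shSC library, all from cells grown in RPMI with 10% serum. The labels do not say whether 20 and 21 are hairpins, clones or repeat cultures, no animal or allele is named, and no other agent is listed. The organism field reads human, but the genes carry mouse Ensembl identifiers and mm10, a mouse build, is named in the submitters' processing notes.

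The shNF2 libraries 20 and 21 held 25837151 and 26829163 reads in genes, and the shSC library held 29532600. Nf2 was at 486 and 458 scaled counts in libraries 20 and 21, against 1539 in shSC (log2 difference -1.70 ± 0.24, SE; adjusted p = 0.00555 by limma). Quantile normalization (adjusted p = 0.496) and a fit without a variance trend (0.187) ended that call, within a range of 5.52e-06 to 0.496 over all alternatives. Scaled counts are whole reads divided by 1 factor per library, and fold changes are on the log2(scaled count + 1) scale unless given as a plain ratio. Each SE is the moderated value of limma, which draws mostly on a trend over all tested genes. Levels are compared between libraries, for 1 gene or for a sum over a list. No mouse transcript lengths were used here, so sums and the part of a gene in them are not adjusted for length.

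Of 8 mesothelial markers listed, 5 had a row. Msln, which encodes mesothelin, was at 9722 and 8977 scaled counts in libraries 20 and 21 and at 7397 in shSC. The keratin gene Krt18 was at 20443 and 16561 against 23657. The other keratin genes of the list were less even: Krt7 rose to 290 and 183 scaled counts in libraries 20 and 21, against 49.7 in shSC (limma adjusted p = 0.0119; lost, like every limma call, under quantile normalization and without a variance trend), and Krt19 was at 3016 and 2618 against 5113 (0.0996). Krt8 was at 6476 and 5420 against 7683. The mesothelial genes Wt1, Upk3b and Lrrn4 had no row. The smallest total of a gene with a row was 15 reads over the 3 libraries. A gene without a row may thus have had few reads rather than none. Many of the listed leukocyte markers had no row. All 7 T and NK cell markers and all 5 endothelial markers had no row, nor did Ptprc, Csf1r, Adgre1 and Itgam of the 10 macrophage and monocyte markers. The 5 macrophage and monocyte markers with a row summed to 8823 and 8294 scaled counts in libraries 20 and 21, against 9683 in shSC. Mrc1 held most of each sum, with 5617 and 6215 scaled counts in libraries 20 and 21, against 5940 in shSC. Cd14 had 2577 and 1659 against 3222, so these macrophage and monocyte messages were not near absent. The sums were 96.2 and 53.5 against 77.9 for 2 of 5 dendritic cell markers, and 11.5 and 14.6 against 9.74 for 1 of 6 fibroblast markers. In bulk RNA such as this, fewer cells making a message and less message per cell cannot be told apart.

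Both shNF2 libraries lay above shSC for 6 ligands (Ccl9, Ccl17, Cxcl10, Ccl2, Cx3cl1 and Ccl7) and below it for 1 (Cxcl1), while Ccl20, Cxcl5 and Ppbp had 1 library on each side. Among all 12813 tested genes 36.1% lay above shSC in both libraries and 35.8% below it in both. At a limma adjusted p under 0.05 the ligands called higher were 2, Ccl9 and Ccl17, where 0.414% of all tested genes were called higher, and 0 ligands were called lower, where 0.429% of all genes were. Nothing is read from these counts, because the ligands were picked with this contrast known. At an unadjusted limma p under 0.05 there were 4 ligands higher and 0 lower, where 4.36% of all tested genes were higher and 4.91% lower; edgeR and DESeq2 also had 0 lower at that level. Over the 10 ligands the median log2 fold change came to 0.97 for library 20 and 0.45 for library 21, beside medians of 0.00656 and -0.00231 over all tested genes.

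**Figure D1:**
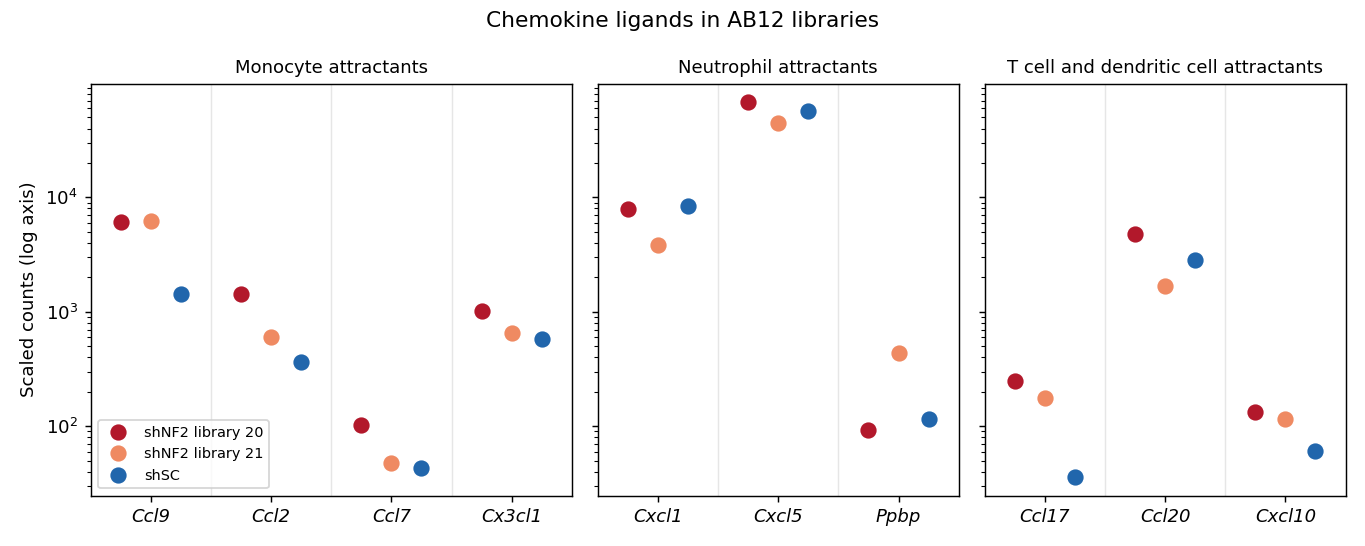
Scaled counts (log axis) of the 10 ligands in shNF2 library 20, shNF2 library 21 and shSC, 1 point per library, in panels by the leukocytes attracted. Ccl9 and Ccl17 have both shNF2 points well above shSC, Ccl20 and Ppbp have shNF2 points on either side of it, and Cxcl1 has its low point in library 21.

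Among the monocyte attractants, Ccl9 was high to a like degree in both shNF2 libraries. CCL9, a mouse CC chemokine that binds CCR1, had 6061 and 6170 scaled counts in libraries 20 and 21, against 1441 in shSC. The shNF2 libraries were level with each other, with a ratio of library 21 to library 20 of 1.02 and a 95% counting interval of 0.982 to 1.06. Library 20 stood 4.21-fold and library 21 4.28-fold above shSC, and the fitted log2 fold change was 2.08 ± 0.21 (SE). The counting intervals used throughout are exact binomial intervals on the recovered reads; they cover counting error only, not the spread between cultures.

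Ccl2 and Ccl7 encode CC chemokines that bind CCR2, the receptor through which inflammatory monocytes leave the bone marrow. Ccl2 had 1417 and 599 scaled counts in libraries 20 and 21, against 361 in shSC. Both shNF2 libraries were above shSC, but by unequal amounts: 3.92-fold in library 20 (interval 3.50 to 4.41) and 1.66-fold in library 21 (1.45 to 1.89). Ccl7 had 101 and 47.6 scaled counts in libraries 20 and 21, against 42.8 in shSC, from 97, 49 and 44 reads. Library 20 alone was apart from shSC beyond counting error, at 2.37-fold (1.64 to 3.46), and the library 21 ratio of 1.11 had an interval of 0.725 to 1.71. The log2 fold changes were 1.35 ± 0.38 for Ccl2 and 0.69 ± 0.48 for Ccl7 (SE).

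Cx3cl1 encodes fractalkine, a membrane-anchored ligand that is shed by ADAM10 and ADAM17 and is read by CX3CR1 on patrolling monocytes, NK cells and T cells. It had 1008 and 650 scaled counts in libraries 20 and 21, against 574 in shSC. Both shNF2 values were higher, library 20 by 1.76-fold (interval 1.58 to 1.95) and library 21 by 1.13-fold (1.01 to 1.27), with a log2 fold change of 0.49 ± 0.28 (SE). Summed over the 4 monocyte attractants there were 8588 and 7467 scaled counts in libraries 20 and 21, against 2420 in shSC, and Ccl9 held most of the scaled counts in each sum. The macrophage marker Lyz2, a lysozyme gene, had 260 and 108 scaled counts in these libraries against 56.5 in shSC. Ccl2 had the same order of libraries, but so did Ccl7, Cx3cl1, Ccl17, Cxcl10, Ccl5, Ccl6 and the keratin gene Krt7. Of the 5 macrophage and monocyte markers with a row, Lyz2 was the only 1 above shSC in both shNF2 libraries. Cd68 had 105 and 87.5 against 88.6 and Cd14 had 2577 and 1659 against 3222. Cd74 had 264 and 225 against 376, and Mrc1 had 5617 and 6215 against 5940. The part of these markers in the Ccl2 values was not tested.

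The neutrophil attractants encode CXC chemokines that act through CXCR2, and none of these genes had both shNF2 libraries above shSC. Cxcl1 had 7874 and 3849 scaled counts in libraries 20 and 21, against 8481 in shSC. Library 20 was close to shSC, at a ratio of 0.928 (interval 0.900 to 0.958), whereas library 21 was at 0.454 (0.437 to 0.471). The log2 fold change over both was -0.62 ± 0.32 (SE).

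Cxcl5 encodes an epithelial-type neutrophil attractant. It had 67708 and 45078 scaled counts in libraries 20 and 21, against 56732 in shSC. The shSC value lay between the shNF2 values, with ratios of 1.19 (1.18 to 1.21) for library 20 and 0.795 (0.785 to 0.804) for library 21, and the log2 fold change over both was -0.04 ± 0.28 (SE). Ppbp, the gene of the platelet basic protein from which the CXCR2 ligand CXCL7 is cut, had 92.1 and 433 scaled counts in libraries 20 and 21, against 115 in shSC. Library 21 was the only high one, 3.76-fold above shSC (interval 3.07 to 4.65), and library 20 was at 0.801 of shSC (0.601 to 1.06).

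Ppbp is best known from platelets and their precursors. Of 8 platelet and megakaryocyte markers, 6 had no row, among them Gp9, Gp1ba, Gp1bb, Gp6 and Treml1. Itga2b, which encodes platelet integrin alpha-IIb, was at 29.3 and 26.2 scaled counts in libraries 20 and 21 and at 28.2 in shSC. Pf4, the gene of platelet factor 4 and another CXC ligand, went the other way from Ppbp, with 63 and 8 reads in libraries 20 and 21, against 87 in shSC. The markers with a row summed to 95.2 and 34.0 scaled counts in libraries 20 and 21, against 113 in shSC. Their part in the Ppbp values was not tested. Of 6 neutrophil markers only Ly6g and S100a8 had a row, summing to 37.7 and 29.2 scaled counts against 29.2 in shSC.

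Among the attractants of T cells and dendritic cells, Ccl17 had the largest fold of all 10 ligands in each shNF2 library. CCL17 binds CCR4, which is found on type 2 helper and regulatory T cells. It had 249 and 176 scaled counts in libraries 20 and 21, against 36.0 in shSC, from 238, 181 and 37 reads. Both shNF2 libraries were far above shSC, 6.91-fold in library 20 (interval 4.87 to 10.1) and 4.88-fold in library 21 (3.41 to 7.16), with a fitted log2 fold change of 2.51 ± 0.36 (SE). The library 21 interval overlapped those of Ccl9 (4.05 to 4.53) and Ppbp (3.07 to 4.65), so the rank of Ccl17 there is within counting error. Cxcl10, an interferon-inducible gene whose product acts through CXCR3 on activated T cells and NK cells, had 133 and 117 scaled counts in libraries 20 and 21, against 60.4 in shSC. The shNF2 libraries did not differ from each other beyond counting error (ratio of 21 to 20 of 0.878, 0.678 to 1.14), and stood 2.20-fold (1.61 to 3.03) and 1.93-fold (1.41 to 2.67) above shSC.

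Ccl20 encodes the ligand of CCR6, carried by IL-17-producing T cells, B cells and immature dendritic cells. It had 4764 and 1672 scaled counts in libraries 20 and 21, against 2844 in shSC. The shNF2 libraries lay on opposite sides of shSC, each beyond counting error, at ratios of 1.68 (1.599 to 1.755) and 0.588 (0.554 to 0.624). The average over both, a log2 fold change of -0.01 ± 0.42 (SE), is the balance of these opposite values.

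Several ligands also differed between the shNF2 libraries. Library 21 was below library 20 for 8 of the 10 ligands, where 49.2% of all tested genes were, and for 7 of the 10 the counting interval of the ratio lay below 1, where it did for 26.6% of all tested genes. The interval lay above 1 for 1 ligand, where it did for 27.7% of all tested genes. Counting intervals narrow as reads increase, and these shares of all tested genes were not matched to the ligands in read number. At least 2-fold lower in library 21 were 4 ligands (Ccl20, Ccl2, Ccl7 and Cxcl1), against 2.01% of all tested genes, and at least 2-fold higher was 1 (Ppbp), against 1.82%. The median absolute log2 difference between these libraries was 0.83 for the ligands and 0.23 over all tested genes. With 1 library on each side there is no replicate of this difference and no test.

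**Figure D2:**
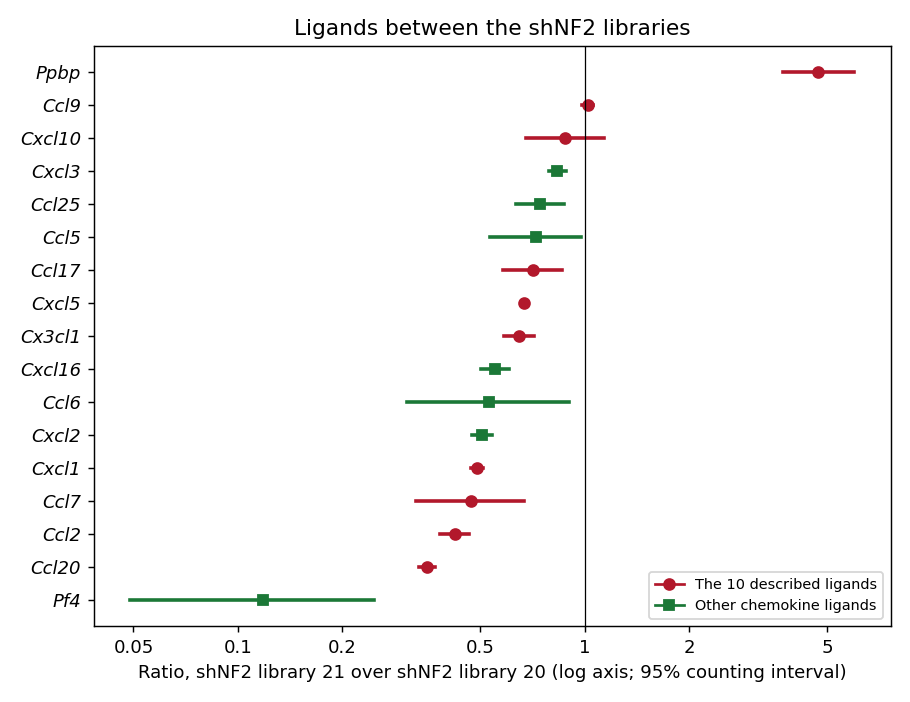
Ratio of shNF2 library 21 to shNF2 library 20 (log axis) with 95% counting intervals for 17 chemokine ligands; circles are the 10 described ligands and squares other ligands, and Ccl28, with 10 reads or fewer in each library, is left out. Ppbp lies at 4.70, Ccl9 at 1.02, and Ccl20, Ccl2, Ccl7 and Cxcl1 lie below 0.5.

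The ratios of library 21 to library 20 were 0.351 for Ccl20 (interval 0.332 to 0.371), 0.422 for Ccl2 (0.383 to 0.465), 0.469 for Ccl7 (0.326 to 0.668) and 0.489 for Cxcl1 (0.470 to 0.508). Cx3cl1, Cxcl5 and Ccl17 were lower by less, at 0.645, 0.666 and 0.707. Ppbp was at 4.70 (3.73 to 5.98), the only ligand of the 10 that library 21 held above library 20 beyond counting error. Ccl9 and Cxcl10 were the pair for which the interval included 1.

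Library 21 also differed from library 20 with the base composition of transcripts. Human transcripts matched by gene symbol or a synonym of it served as stand-ins. They covered 10358 tested genes (80.8%) and 9 of the 10 ligands (Ccl9 had none). Spearman's rho across genes between GC and the log2 ratio of library 21 to library 20 was -0.419. The median log2 ratio was 0.15 over the eighth of genes lowest in GC and -0.25 over the eighth highest in GC. After subtraction of the GC and length trend, the log2 ratio of library 21 to library 20 was -1.63 for Ccl20 against -1.51 before, -1.29 for Ccl2 against -1.24, -1.18 for Ccl7 against -1.08, -1.08 for Cxcl1 against -1.03 and 2.13 for Ppbp against 2.22. The log2 ratio of Ccl17 was -0.29 after subtraction against -0.50 before. Each of the 5 ligands past 2-fold between these libraries was still past it.

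**Figure D3:**
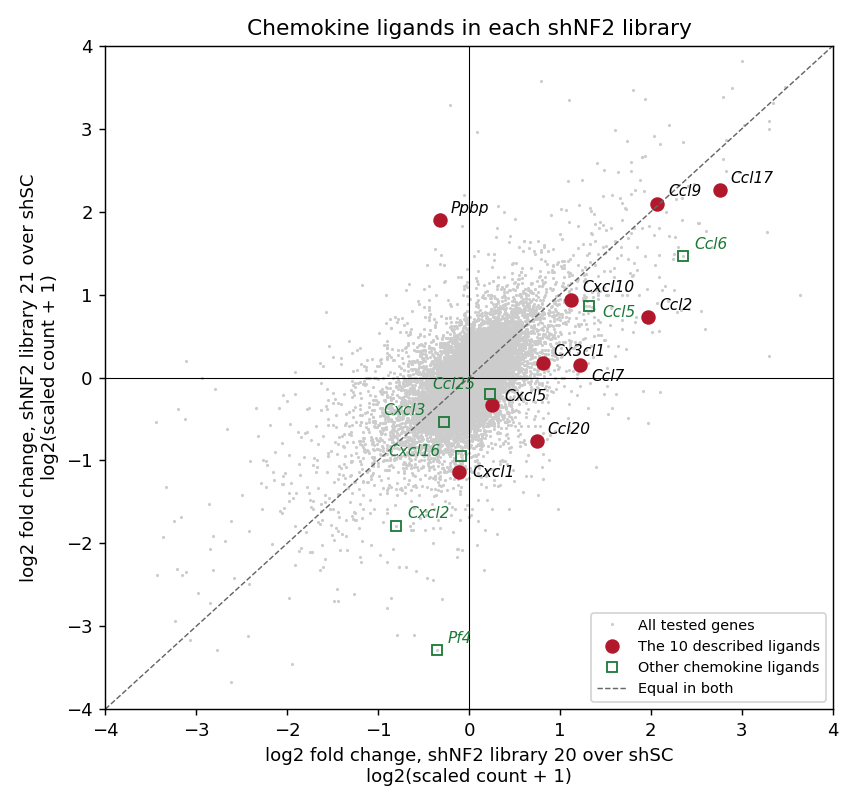
Log2 fold change over shSC in shNF2 library 20 (x axis) and shNF2 library 21 (y axis) for all tested genes (grey), the 10 described ligands (red) and 7 other chemokine ligands (green); both axes share the same shSC library, and 16 genes lie outside the plotted range. Ccl9 lies on the diagonal at 2.07 and 2.10, most ligands lie under it, and Ppbp lies far above it at -0.32 and 1.90.

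The remaining chemokine ligands give the setting. Of 28 other ligand genes listed, 8 had a row and 7 were tested, of which 0 passed in either direction; in libraries 20 and 21 they had median log2 fold changes of -0.09 and -0.53. Cxcl2, a CXCR2 ligand and a close relative of Cxcl1, had 2848 and 1439 scaled counts in libraries 20 and 21, against 4964 in shSC. Both shNF2 values were lower, by -1.29 ± 0.32 on the log2 scale (SE; limma adjusted p = 0.0955), which passed without the filter on low values (adjusted p = 0.00452) and after length and GC correction (0.0176) in a range of 0.00452 to 0.706 over alternatives. Cxcl3, of the same branch, had 2471 and 2060 scaled counts in libraries 20 and 21, against 2983 in shSC, and Cxcl16, a membrane-tethered ligand of CXCR6, had 1336 and 736 against 1421.

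Ccl6, like Ccl9 a mouse CC chemokine that binds CCR1, had 42 and 24 reads in libraries 20 and 21, against 8 in shSC. Its log2 fold change of 1.91 ± 0.58 (SE) did not pass (limma adjusted p = 0.223). Ccl5, a CC chemokine that attracts T cells and monocytes, had 109 and 78.7 scaled counts in libraries 20 and 21, against 42.8 in shSC, and did not pass (1.09 ± 0.40, SE; limma adjusted p = 0.359). All 7 of the other ligands plotted were lower in library 21 than in library 20, each with a counting interval that left out 1, from 0.834 for Cxcl3 down to 0.118 for Pf4 (0.0488 to 0.247).

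Receptors for these ligands were largely without a row. Of 23 chemokine receptor genes 5 had one and 3 were tested; Ccr2, Ccr6, Cxcr3 and Cx3cr1, the receptors of Ccl2, Ccl20, Cxcl10 and Cx3cl1, had none. Ccr1, which encodes the receptor of CCL9, fell to 48.1 and 132 scaled counts in libraries 20 and 21, against 503 in shSC (log2 fold change -2.64 ± 0.47, SE; limma adjusted p = 0.0182). The Ccl9 ligand and the Ccr1 receptor messages thus lay on opposite sides of shSC in both shNF2 libraries. The call on Ccr1 was lost with robust moderation (adjusted p = 0.183), without a variance trend (0.318) and under quantile normalization (0.647), in a range of 7.93e-05 to 0.647 over alternatives. Cxcr2 had 7 and 9 reads in libraries 20 and 21 and 12 in shSC, and Ccr4 had 6 and 1 against 8. Ackr3, a scavenging receptor of CXC ligands, had 1221 and 1273 scaled counts in libraries 20 and 21, against 1868 in shSC (limma adjusted p = 0.376), and Ccrl2, a non-signalling relative of chemokine receptors, had 198 and 91.4 against 196 (0.745).

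Genes that shed, trim or display chemokines did not pass. Of 12 listed, 10 were tested and 0 passed, with a median log2 fold change of -0.02 in library 20 and -0.19 in library 21. Adam10, one of the proteases that release fractalkine, had 2688 and 2781 scaled counts in libraries 20 and 21, against 2647 in shSC. The heparan sulfate proteoglycan genes Sdc1, Sdc4 and Gpc1 had log2 fold changes of -0.62, -0.18 and -0.62 (limma adjusted p = 0.364, 0.847 and 0.468).

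**Figure D4:**
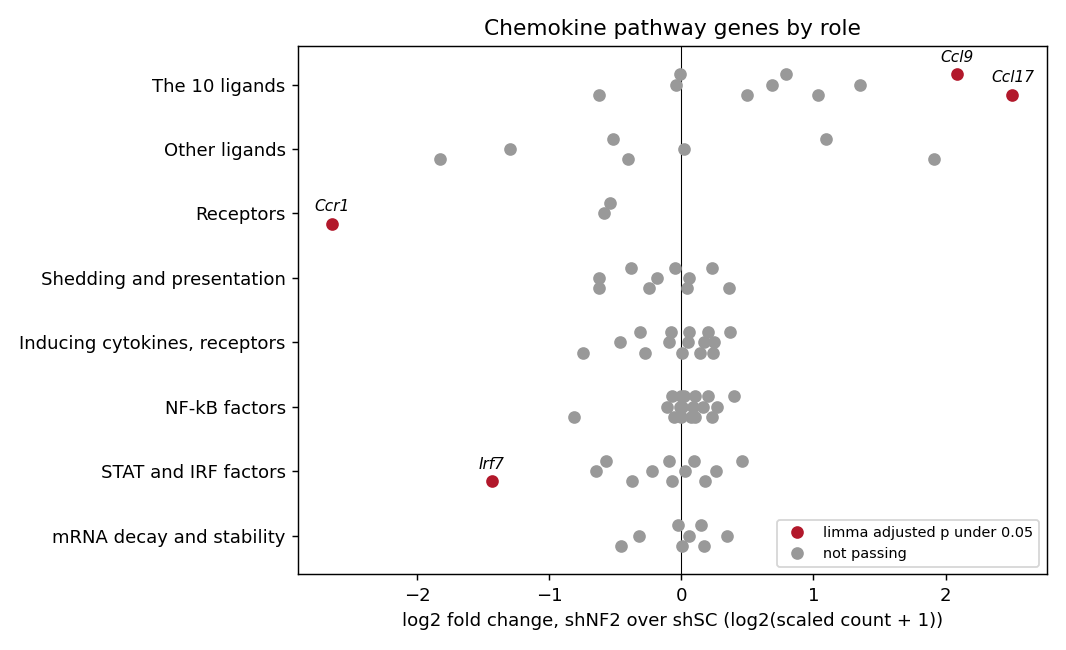
Log2 fold change of shNF2 over shSC for the 10 ligands and 73 tested genes of the pathway by role, 1 point per gene, with genes at a limma adjusted p under 0.05 in red. Ccl9 and Ccl17 lie at the right, Ccr1 and Irf7 at the left, and NF-kB factors lie near 0 apart from Bcl3 at -0.81. The 10 ligands were picked with this contrast known, so their colour is a description.

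Messages of genes in the pathways that induce chemokines were read through 3 further lists. Message levels do not measure the activity of these pathways. Of 23 inducing cytokine and receptor genes, 15 were tested and 0 passed; Tnf, Il1b, Il17a, Ifng, Ifnb1, Il4 and Il13 had no row. The interferon-gamma receptor genes Ifngr1 and Ifngr2 had log2 fold changes of 0.17 and -0.47, the type I interferon receptor gene Ifnar1 had -0.08, Tlr4, the endotoxin receptor gene, -0.27, and Il13ra1 -0.74. All 18 NF-kB factors and regulators were tested and 0 passed, with a median log2 fold change of 0.08 in library 20 and -0.03 in library 21. Bcl3, an IkB-like coregulator, had 109 and 114 scaled counts in libraries 20 and 21, against 196 in shSC (limma adjusted p = 0.442). Nfkbie, an inhibitor that NF-kB induces, had a log2 fold change of 0.40, the IKK subunit genes Ikbkg and Chuk 0.27 and 0.10, and Nfkbiz 0.00466.

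Of 12 STAT and IRF factors 1 passed. Irf7, a driver of type I interferon genes, fell to 506 and 355 scaled counts in libraries 20 and 21, against 1146 in shSC (log2 fold change -1.43 ± 0.27, SE; limma adjusted p = 0.0273), a call lost without a variance trend (0.295) and under quantile normalization (0.523), in a range of 0.00131 to 0.523 over alternatives. Irf1, which acts on the Cxcl10 promoter, had 2082 and 1464 scaled counts in libraries 20 and 21, against 1538 in shSC, Irf3 had a log2 fold change of -0.22, and Stat6, through which interleukin signals induce Ccl17, had -0.09. Of 8 genes that bind or degrade short-lived messages 0 passed. Zfp36l2, of the tristetraprolin family, had 1989 and 2004 scaled counts in libraries 20 and 21, against 2735 in shSC (-0.45; limma adjusted p = 0.538), the stabilizing factor gene Elavl1 had a log2 fold change of 0.06 and Hnrnpd had 0.34. Over the 73 tested pathway genes outside the 10 ligands, 0 passed upward and 2 downward; at an unadjusted limma p under 0.05 there were 2 higher and 9 lower, beside 4.36% and 4.91% of all tested genes.

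The pattern of Cxcl5, the ligand with the highest mean scaled count (not adjusted for transcript length), was matched to other genes by the Euclidean distance between the pairs of log2 fold changes in libraries 20 and 21. Among 9536 named genes with a mean of at least 100 scaled counts the nearest were Stra13 (0.25 and -0.32), Rrp9 (0.27 and -0.34) and Ncln (0.25 and -0.35), at distances of 0.0103, 0.0129 and 0.0171. This likeness rests on 3 libraries. No distance to be expected among so many genes was computed, so the small distances do not show shared regulation.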

How the data were processed

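The authors deposited 1 table of gene signal, named as scaled counts. Per the submitters' processing notes the tools were DESeq 1.22.1, HTSeq 0.5.3, STAR 2.5.0a and cutadapt 1.6, with mm10 as the build and no roles given. From the values, each library is whole reads divided by 1 factor (0.956 and 1.03 for libraries 20 and 21, 1.03 for shSC; 100% whole within 0.001 reads). The 4 rows naming no gene, 47.7% to 48.7% of each library, were left out; one, reads without a unique alignment, held 35.5% to 37.5%, so near-identical chemokine copies could lose reads. The sources used here do not give the strand setting.

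limma 3.58.1 (R 4.3.3, variance trend, Benjamini-Hochberg) compared shNF2 with shSC on log2(scaled count + 1) for the 12813 genes whose mean reached 10, at a threshold of 0.05. The residual spread is that between both shNF2 libraries (1 residual degree of freedom). limma moderates it toward a trend over all tested genes (11.9 prior degrees of freedom). Each SE is this moderated value, so it does not show how far apart the shNF2 libraries lie for that gene. The shSC library, without a replicate, was assumed to vary alike. Separate cultures are not stated, so p-values may measure technical spread only. With 2 libraries against 1 the smallest exact p is 0.333. edgeR 4.0.16 and DESeq2 1.42.0 on the recovered reads, other scalings, filters and moderations were alternatives; a length and GC correction (mgcv 1.9.3, human GENCODE 29 transcripts as stand-ins) was added after the data were seen. The scripts were tested on simulated data. Members and lists were chosen with earlier results of these data known. Named were all ligands and, from each other list, genes passing the test or else the 2 with the smallest p, and the 3 with the highest mean; Ccl5, Pf4, Ccl28, Ccr4 and Cxcr2 were named after their values were seen. No mouse sequence was used here.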

Additional observations from a re-analysis of the deposited data

How the results depend on the processing

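Ccl9 and Ccl17 were called higher by limma, edgeR and DESeq2 (2 ligands each). Over the whole table these called 53, 29 and 41 genes higher, of 12813, 12813 and 12316 tested. The tools shared the same 3 libraries, and the ligands were picked with this contrast known, so nothing is read from these calls. Without the filter on low values Ccl2 was called higher as well (3 ligands, beside 110 of all 13936 genes tested). After length and GC correction Ccl2 and Ccl17 were called higher (2 ligands, Ccl9 not covered, beside 102 of all 10358 genes tested). There were 0 ligands called under quantile normalization or without a variance trend (882 and 1036 genes at an unadjusted p under 0.05 by limma). Under those settings limma called 0 genes higher and 0 lower over the whole table, and 0 pathway genes, against 53, 55 and 2 downward; the cause was not tested. Without the filter on low values 110 genes were higher and 122 lower, and after length and GC correction 102 and 108; edgeR called 29 higher. Robust moderation left 1 pathway gene called lower. The median log2 fold change of the ligands ran from 0.45 without library 20 to 0.97 without library 21. It ran from 0.68 to 0.92 over the other settings that cover all 10 ligands. After length and GC correction, over 9 ligands without Ccl9, it was 0.64. The median log2 ratio of library 21 to library 20, -0.61, was -0.76 after length and GC correction, which leaves out Ccl9; without correction the same 9 ligands had -0.63. Each call rests on both shNF2 libraries, since leaving out 1 leaves no residual degree of freedom and no test. No paired analysis was possible because the labels pair the shSC library with neither shNF2 library. The single shSC library enters every fold change, and low read numbers limit Ccl17, Ccl7, Cxcl10 and Ppbp.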
